A study of Mus musculus with 2 samples.

Results

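Microglia with raised Cst7, Lpl and Fn1 that still carried resident microglial transcripts were studied in retinas of male mice after bright light. The mice were CB6F1 animals of 8 months with the Cx3cr1-YFP reporter, and both groups shared this strain, sex, age and reporter. Each group was 1 pool of the retinas of 5 to 8 animals, from which live YFP-positive cells were sorted, so that only cells using the Cx3cr1 promoter were collected. Each pool gave 1 library made with the 10x Genomics 3' chemistry, which counts unique molecular identifiers (UMIs) per gene and cell barcode. The control group had no light damage. In the light-damaged group, the mice were adapted to darkness overnight, their pupils were dilated, and they received 10 klux of LED light for 4 h, followed by 5 days of recovery.

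A barcode of the light-damaged library was a member if it had at least 300 genes, at most 10% mitochondrial UMIs, and passed 4 cuts on UMIs per 10000 UMIs. The sum of Cst7, Lpl and Fn1 was at least 8. The sum of the resident genes P2ry12, Tmem119, Siglech, Gpr34 and P2ry13 was at least 10. The sum of the cell cycle genes Top2a, Birc5, Mki67, Ube2c, Cdk1, Ccna2 and Rrm2 was under 5, and Lgals3 was under 20. The rule found 130 members among 6799 light-damaged barcodes and 10747 barcodes in both libraries. The comparison cells were 4255 light-damaged barcodes with the same resident cut and a Cst7, Lpl and Fn1 sum under 2. The same limits in the control library gave 3509 control comparison cells. Members were chosen by measured transcripts in 1 library, so all differences between members and comparison cells are descriptions without a test. Their 95% intervals are exact Poisson intervals that cover counting error only, because cells of 1 library are not replicates.

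Cst7 encodes cystatin F, an inhibitor of lysosomal cysteine proteases, Lpl encodes lipoprotein lipase, which releases fatty acids from lipoproteins, and Fn1 encodes fibronectin, a matrix glycoprotein. Cst7 and Lpl are known from microglia near damaged neurons and amyloid, where microglia that take this path lower P2ry12, Tmem119 and other resident genes. In the retina, microglia move toward dying photoreceptors after light damage and take up their debris. Psat1, named with the 3 genes as a marker of these cells, encodes phosphoserine aminotransferase of the serine synthesis pathway.

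The light-damaged library held 6821 barcodes with a median of 7351 UMIs, and the control library held 4003 barcodes with a median of 4846 UMIs. Members had a median of 7239.5 UMIs and 2114 genes, close to 6865 UMIs and 2082 genes in the comparison cells. The median share of mitochondrial UMIs was 2.55% in both. Summed over cells, 1173351 UMIs stood behind the members' values and 32560880 behind those of the comparison cells. Of 47 barcodes that occurred in both libraries, 0 were members.

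All 3 genes of the first cut seldom occurred in the same member, while Cst7 and Lpl often did. Cst7 had a UMI in 100 of the 130 members, Lpl in 87 and Fn1 in 30. Cst7 with Lpl and without Fn1 was the most common pattern, in 50 members, followed by Cst7 alone in 37. Lpl alone was found in 13 members, Lpl with Fn1 in 12, all 3 genes in 12, Fn1 alone in 5 and Cst7 with Fn1 in 1. By the gene with most UMIs, 71 members were led by Cst7, 39 by Lpl and 15 by Fn1, and 5 were tied. Cst7 (chr2:150570415-150578944, plus strand), Lpl (chr8:68880491-68907448, plus strand) and Fn1 (chr1:71585520-71653200, minus strand) are protein-coding genes at these positions in mm10 (GENCODE M21 annotation).

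**Figure D1:**
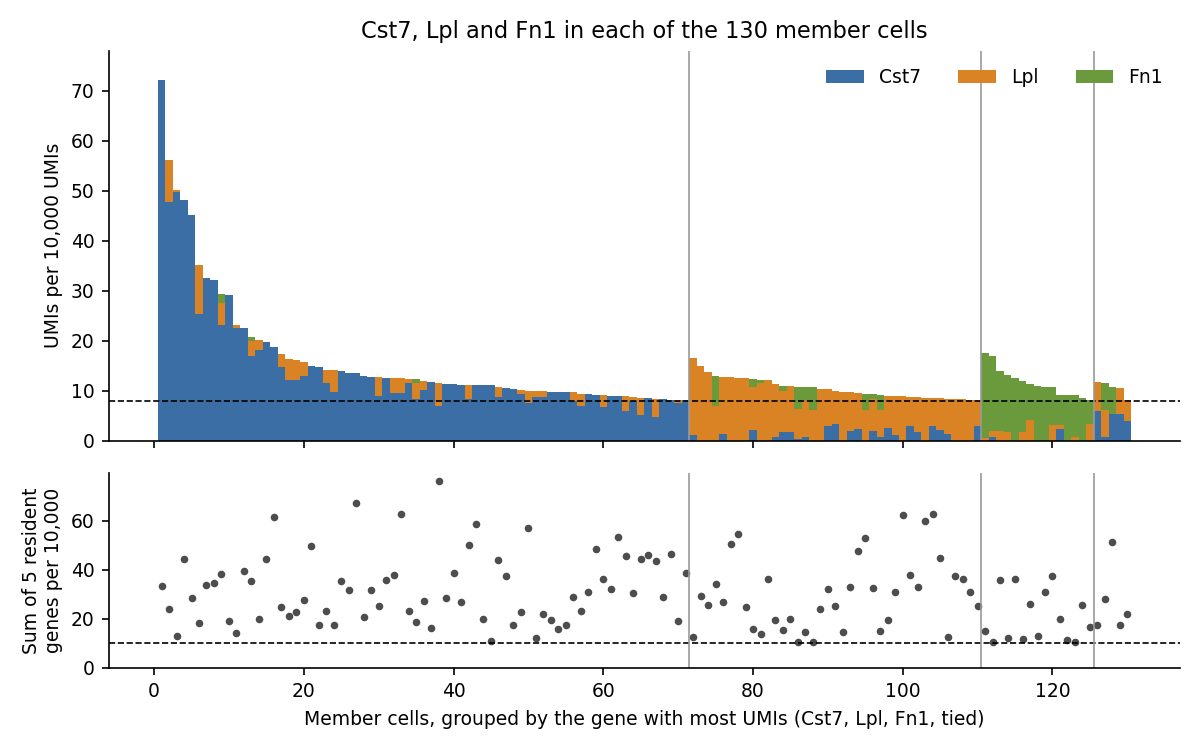
Each of the 130 members is a bar above and a point below, grouped by the gene with most UMIs and ordered by height within a group. The upper panel stacks UMIs of Cst7, Lpl and Fn1 per 10000 UMIs over the cut at 8 (dashed), and the lower panel plots the resident sum over the cut at 10 (dashed). The highest bars, up to 72.1, are mostly Cst7, and the Fn1-led members form a small block of 15 cells.

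The sum of the 3 genes ran from 8.06 to 72.1 per 10000 UMIs over the members, with a median of 11.1, so most members lay near the cut. Cst7 alone reached 72.1, Lpl 15.5 and Fn1 17.1 per 10000 UMIs in a single member. In summed UMIs, Cst7 stood at 815 UMIs per 1000000 UMIs (CPM) in members, 16.1 in comparison cells and 3.98 in control comparison cells. Lpl stood at 359.7, 21.4 and 6.26 CPM in the same order, and Fn1 at 215.6, 4.55 and 0.228 CPM. These values chose the cells and are given as a description.

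Members had resident transcripts at a lower level than comparison cells, and both lay under the control. The resident cut used these genes in each of the 3 sets, so their presence was fixed by the rule. Their levels are given as a description. The resident sum had a median of 28.3 per 10000 UMIs in members, 39.2 in comparison cells and 64.6 in control comparison cells. P2ry12, the ADP receptor that guides microglial processes, stood at 784 CPM in members, 1234 in comparison cells and 2344 in control comparison cells. Tmem119, a microglial membrane protein, stood at 683, 1051 and 1411 CPM. Gpr34, a lysophosphatidylserine receptor, was nearest to the comparison cells, at 585 against 658 CPM. The members' distributions overlapped those of the comparison cells: P2ry12 reached a median of 7.57 per 10000 UMIs (highest 31.0) in members and 12.2 (highest 58.3) in comparison cells.

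Of 193 light-damaged barcodes that passed the first cut, 130 were members. Failing the resident cut alone removed 28 barcodes, failing it with the Lgals3 cut removed 15, failing the cell cycle cut alone 16, and failing the Lgals3 cut alone 2. The other 2 failed the cell cycle cut and another. The 28 barcodes that missed only the resident cut had Spp1 at 5409.5 CPM and Lyz2 at 7663 CPM, against 1124 and 2727 CPM in members, and Ms4a7, a gene of macrophages, at 238 against 16.2 CPM. The 16 barcodes that missed only the cell cycle cut were the deepest, with a median of 22415.5 UMIs, and held Fn1 at 776 and Cst7 at 222 CPM. Just inside the first cut, from 8 to 10, were 47 members, and just outside it, from 6 to 8, were 98 cells. Psat1 stood at 32.9 CPM just inside and 37.6 CPM just outside, Ctsd at 21558 and 20432 CPM, Spp1 at 1156 and 717.5 CPM, and Ccl5 at 1082 and 658 CPM.

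Cells that passed the rule were more frequent in the light-damaged library. They made up 1.91% of its barcodes (95% Clopper-Pearson interval 1.60% to 2.27%), against 8 of 3948 control barcodes, or 0.203% (0.0875% to 0.399%). With every barcode thinned to 3000 UMIs, the shares were 2.40% (163 of 6799) and 0.278% (9 of 3243), after 754 shallower control barcodes were left out. Light damage and library cannot be told apart with 1 library per group, and the intervals cover counting error only. The 8 control cells held Cst7 at 1278 CPM, Apoe at 19534 CPM and Ccl5 at 2856 CPM, with all 181 Ccl5 UMIs in 2 of the cells. They had 0 UMIs of Fn1 and of Psat1.

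**Figure D2:**
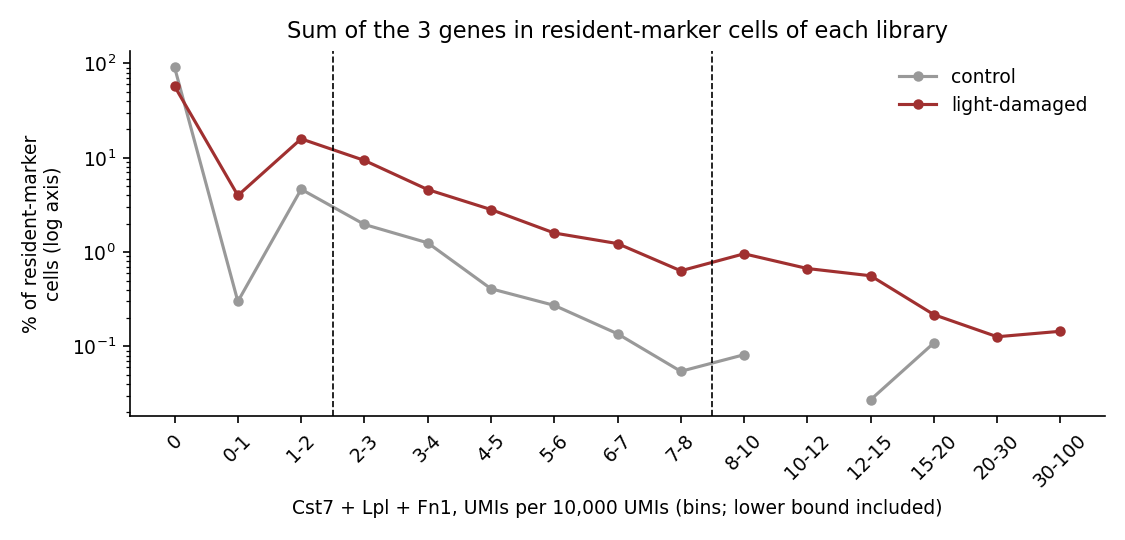
For all barcodes that passed the resident cut, the percentage (log axis) in each bin of the Cst7, Lpl and Fn1 sum per 10000 UMIs is plotted for both libraries, with the limit of the comparison cells at 2 and of the members at 8 dashed. A sum of 0 was found in 57.2% of light-damaged and 90.8% of control cells, and in each bin above 0 where both libraries hold cells the light-damaged percentage is higher, with no empty bin at the cut of 8. Bins without cells are not drawn, and cells that failed the cell cycle or Lgals3 cut are included. Barcodes were not thinned here, although the control library was shallower (median 4846 against 7351 UMIs). The part of depth in these percentages was not tested.

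Psat1 (chr19:15904678-15947337, minus strand), the marker outside the rule, was named with earlier results of these data known, so its values are a description. It had 47 UMIs in 29 of the 130 members. Its level was 40.1 CPM in members, 13.2 CPM in comparison cells and 3.58 CPM in control comparison cells. The ratio of members to comparison cells was 3.04 (95% counting interval 2.20 to 4.11). A UMI of Psat1 was found in 22.3% of members and 7.38% of comparison cells. In 106 light-damaged barcodes led by perivascular macrophage genes, with a higher median depth of 9233.5 UMIs, the share was 2.83%. The highest member held 6 of the 47 UMIs. Without its UMIs in that cell, and with the members' total kept, the ratio was 2.65.

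Psat1 was not particular to the members. Light-damaged cells with a sum of 2 to 4 that passed the other cuts had 22.5 CPM, and those with 4 to 8 had 30.1 CPM. The 16 cells that missed only the cell cycle cut had 104 CPM. The 28 barcodes that missed only the resident cut had 66.9 CPM, with a UMI of Psat1 in 32.1% of them. Over the 5180 genes tested, 272 were over 1.5 times higher in members, or 5.25%, and 246 were over 1.5 times lower, or 4.75%. The 16 genes of the rule were left out, and tested genes had at least 20 CPM in members or comparison cells. These percentages are the background for the counts over all members that follow. Of the 14 genes listed for serine and one-carbon metabolism, 4 reached this minimum, and 2 were over 1.5 times higher. Phgdh, the first enzyme of serine synthesis, stood at 71.6 against 37.8 CPM (ratio 1.89, 1.50 to 2.36), although 31.7% of 50-base words in the last 500 bases of its transcripts recur in the pseudogene Gm9347. Shmt2, the mitochondrial serine hydroxymethyltransferase, had a ratio of 1.47 (1.02 to 2.05), and Mthfd2, the next mitochondrial folate enzyme, 1.18 (0.773 to 1.74). The median log2 ratio of the 4 genes was 0.74, beside 0.02 over all genes tested. Among 11 tested targets of ATF4, a transcription factor of amino acid stress, 1 was over 1.5 times higher and 1 over 1.5 times lower (median log2 ratio -0.08), and 0 of 18 tested tRNA synthetases passed 1.5 times in either direction. Gdf15, the higher ATF4 target, had 89.1% of its member UMIs in 5 cells.

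Of the 272 higher and 246 lower genes, not all had an interval that left out 1. The interval lay above 1 for 265 of the higher genes and below 1 for 218 of the lower ones. Each interval was for a single gene, without correction for the number of genes tested, and the genes were chosen by the same ratios. The intervals therefore do not show how many of these genes are clear of counting error. Part of the counts of higher and lower genes rested on few cells. For 37 of the higher genes (13.6%), more than 50% of the member UMIs came from 5 cells, which are 3.85% of the members. Without each gene's UMIs in its highest member cell, 128 genes were higher and 447 lower. This alternative keeps the members' total and so lowers the members' level of every gene.

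The 15 highest ratios included secreted, lipid-handling and chemokine genes, and most of them drew a large part of their UMIs from few cells. Spp1, the secreted phosphoprotein osteopontin, stood at 1124 CPM in members, 196.5 in comparison cells and 33.3 in control comparison cells (ratio 5.72, 5.39 to 6.07), with UMIs in 73 members and 64.3% of them in 5 cells. Fabp5, a fatty acid binding protein, stood at 160.2 against 36.0 CPM (ratio 4.45, 3.80 to 5.20), in 37 members with 60.6% of UMIs in 5 cells. Msr1, a scavenger receptor for modified lipoproteins, stood at 60.5 against 16.1 CPM (ratio 3.76, 2.89 to 4.83), in 28 members with 49.3% in 5 cells. Ch25h, which makes 25-hydroxycholesterol, had a ratio of 5.08 (3.93 to 6.50) in 19 members with 63.2% in 5 cells, and Ctla2a, a cysteine protease inhibitor, 4.94 (3.74 to 6.43) in 31 members with 45.5% in 5 cells. Lilrb4a, an inhibitory receptor, was the most widely shared, in 78 members, at 245.5 against 70.9 CPM (ratio 3.46, 3.05 to 3.91). All 50-base words in the last 500 bases of Lilrb4a recur in another annotated entry of that symbol, so its count is uncertain. Most of these genes were higher still in the 28 barcodes that missed only the resident cut. There Fabp5 stood at 598, Msr1 at 301, Ch25h at 380 and Lilrb4a at 706 CPM. Ctla2a was lower there, at 29.3 against 56.2 CPM in members.

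The chemokine genes among the highest were also unevenly spread over members. Ccl5 stood at 1961 CPM in members, 123 in comparison cells and 28.2 in control comparison cells (ratio 15.98, 15.2 to 16.8). Its UMIs came from 35 members, and 70.2% of them from 5 cells. Its median over members was 0 per 10000 UMIs, and its highest value 338. Cxcl13, a chemokine for B cells, had a ratio of 12.1 from 10 members, with 95.1% of UMIs in 5 cells, and Ccl7, a monocyte chemokine, 3.67 from 16 members, with 85.9% in 5 cells.

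For 4 of the highest ratios a single member decided the value. B930036N10Rik had 44 of 48 UMIs in 1 cell (ratio 18.8, and 1.56 without these UMIs, the members' total kept), and Gm43409 had 48 of 50 in 1 cell (10.7, and 0.427 without). Loxl2, a collagen-crosslinking oxidase, had 46 of 49 UMIs in 1 cell (9.25, and 0.566 without), and Cmpk2, an interferon-responsive kinase, 36 of 41 (6.73, and 0.821 without). Ndrg1, a stress-responsive gene, had 13 of 26 UMIs in 1 cell (ratio 6.56). Gm1673 had a ratio of 3.55 from 23 members.

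**Figure D3:**
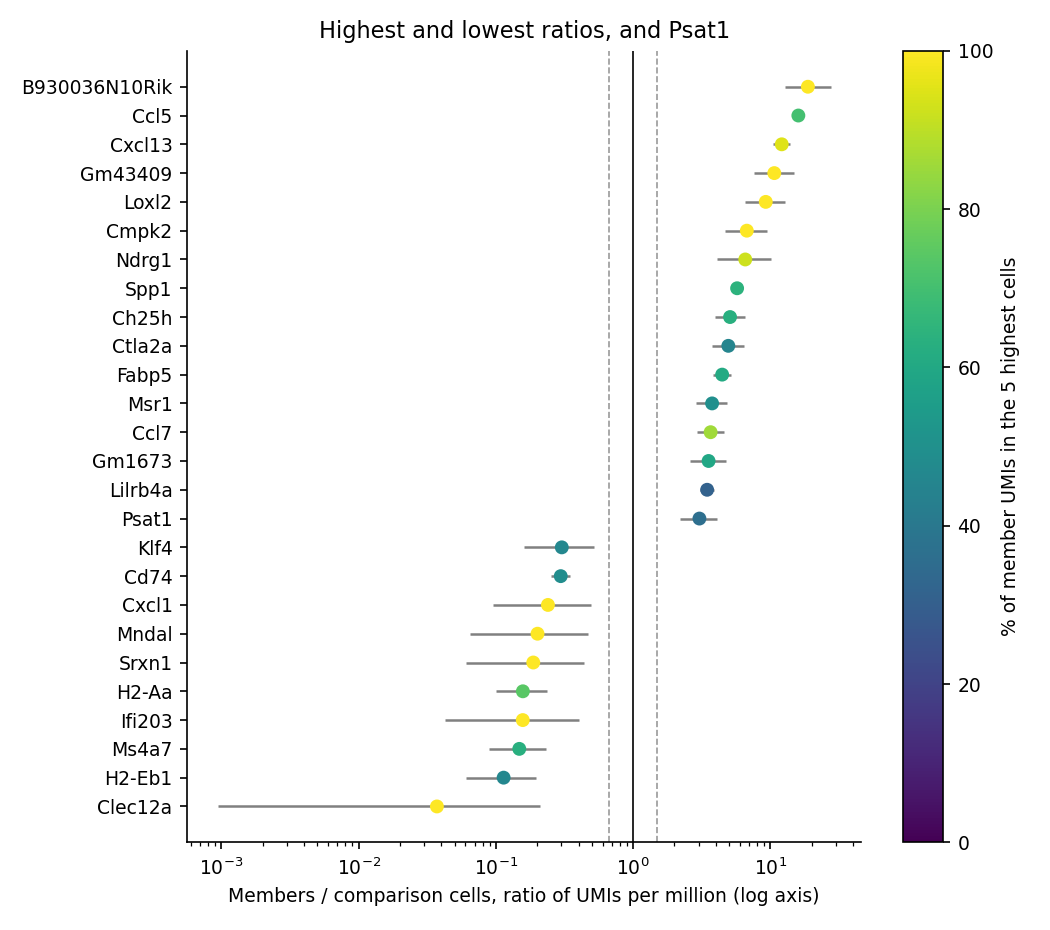
Ratios of members to comparison cells (log axis) are points with 95% counting intervals for the 15 highest and 10 lowest genes and Psat1, and the colour gives the percentage of member UMIs in the 5 highest cells. Dashed lines mark 1.5 times in either direction. The points at the top right are mostly yellow, with few cells behind them, while Lilrb4a, Psat1, Ctla2a and Msr1 are darker.

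The lowest ratios were led by genes of MHC class II and of macrophages. Clec12a, a myeloid lectin receptor, had 1 UMI in members (ratio 0.0372, 0.000941 to 0.208). H2-Eb1 and H2-Aa, chains of MHC class II, had ratios of 0.114 (0.0606 to 0.195) and 0.157 (0.0996 to 0.236), and Cd74, their invariant chain, 0.297 (0.250 to 0.349). Ms4a7 had a ratio of 0.148 (0.0891 to 0.232). Ifi203 and Mndal, interferon-inducible genes that overlap each other on the same strand and cannot be separated with certainty, had 0.157 and 0.201. Srxn1, an antioxidant enzyme, had 0.187, Cxcl1, a neutrophil chemokine, 0.240, and Klf4, a myeloid transcription factor, 0.302 (0.160 to 0.519). The share of cells with a UMI differed less than these levels: Cd74 was found in 34.6% of members and 36.9% of comparison cells, and H2-Eb1 in 9.23% and 8.34%.

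Comparison cells held more barcodes rich in macrophage markers. The cell cycle and Lgals3 cuts were set for members only, and 4177 of the 4255 comparison cells pass them. With comparison cells limited to these, 328 genes were higher in members and 253 lower. At least 5 UMIs of Ccr2, Ly6c2, Plac8, Ms4a7, Mrc1, Cd163 and Pf4 together were found in 273 of 4255 comparison cells and 3 of 130 members, while 83.1% of members and 83.9% of comparison cells had none. Among the cells with none, the ratio was 1.02 for Cd74, 1.21 for Ifi203 and 1.83 for Mndal, and the median log2 ratio of the 7 tested MHC class II genes moved from -0.76 to 0.03. Over all cells, 4 of these 7 genes were over 1.5 times lower, and 0 of 10 MHC class I genes passed 1.5 times in either direction.

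Of 28 resident microglial genes outside the rule, 4 were over 1.5 times lower, 1 was higher and 23 lay within 1.5 times, with a median log2 ratio of -0.34. Crybb1, a crystallin found in adult microglia, stood at 78.4 CPM in members, 191 in comparison cells and 265 in control comparison cells (ratio 0.411, 0.331 to 0.505). Slc2a5, the fructose transporter, had a ratio of 0.425 (0.295 to 0.593), Adgrg1, an adhesion receptor, 0.454 (0.367 to 0.556), and Selplg, the P-selectin ligand, 0.582 (0.547 to 0.619). Csf1r, the receptor for the survival factor CSF1, stood at 1709, 2534 and 2841 CPM (ratio 0.674, 0.645 to 0.705). Cx3cr1, the reporter's own gene, was near its level in the comparison cells, at 754 against 878 CPM. Sall1, the microglial transcription factor, stood at 82.7 against 113 CPM. The label of microglia with lower but present resident transcripts matched the levels of these genes.

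Fcrls, an Fc receptor-like gene of resident microglia, ran against the others. It stood at 456 CPM in members, 266 in comparison cells and 86.1 in control comparison cells (ratio of members to comparison cells 1.71, 1.57 to 1.87), with UMIs in 98 members. Among cells with a resident sum of 25 to 50, the ratio was 2.58 (2.29 to 2.91), among cells of 10 to 25 it was 1.08 (0.934 to 1.23), and among cells of 50 or more 1.08 (0.658 to 1.67), so that the higher level was found in 1 of 3 matched ranges. Fcrls also stood at 554 CPM in the 106 light-damaged barcodes led by perivascular macrophage genes, with UMIs in 88.7% of them.

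Genes of the disease-associated microglial program, other than the 3 of the rule, were mostly level or higher. Of 23 tested, 9 were over 1.5 times higher and 0 lower (median log2 ratio 0.43). The list was drawn up with earlier results of these cells known and is no independent evidence of its direction. Csf1, the ligand of Csf1r, stood at 39.2 CPM in members and 13.7 in comparison cells (ratio 2.86, 2.06 to 3.87). Apoe, the lipid carrier, stood at 22409 CPM in members, 16620 in comparison cells and 5187 in control comparison cells (ratio 1.35, 1.33 to 1.37). Its median over single members was 118 per 10000 UMIs, against 25.9 in comparison cells, and members ran from 2.25 to 1293. Trem2, the lipid-sensing receptor, and Tyrobp, its signalling partner, were close to the comparison cells, at ratios of 1.16 (1.12 to 1.21) and 1.25 (1.21 to 1.29). Itgax, an integrin, had 1.56 (1.08 to 2.20), and Axl, a receptor for apoptotic cells, 0.882 (0.751 to 1.03).

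Of 14 cathepsins and cystatins tested, 3 were over 1.5 times higher and 0 lower. Ctsd, the aspartic protease cathepsin D, stood at 19882 CPM in members, 11027 in comparison cells and 9964 in control comparison cells (ratio 1.80, 1.78 to 1.83), with UMIs in all 130 members. Ctsb, cathepsin B, stood at 6454, 3697 and 2876 CPM (ratio 1.75, 1.71 to 1.79). Ctse, cathepsin E, had a ratio of 2.19 (1.48 to 3.15). Ctss, cathepsin S, which trims the MHC class II invariant chain, had a ratio of 0.816 (0.801 to 0.831), and Cst3, the secreted inhibitor cystatin C, stood at 20357 CPM in members, 28329 in comparison cells and 72517 in control comparison cells. Of 18 other lysosomal genes, 3 were higher and 0 lower (median log2 ratio 0.41): Cd63 at 1.69 (1.60 to 1.77), Atp6v1a, a subunit of the proton pump, at 1.54 (1.29 to 1.83), and Cd68 at 1.53 (1.43 to 1.64).

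TFEB and related factors bind an E-box palindrome in many lysosomal genes, so the promoters of named genes were searched for TCACGTGA. The 250 bases before the start of Ctsd and of Cst7 are shown because Ctsd was a higher protease with UMIs in every member and Cst7 led most members. The Ctsd promoter holds the palindrome, given in capitals, from base -99, while Cst7 does not hold these letters. Both sequences are from RefSeq (GRCm38.p6), on the gene's own strand.
Ctsd, chr7:142387828-142388077, minus strand: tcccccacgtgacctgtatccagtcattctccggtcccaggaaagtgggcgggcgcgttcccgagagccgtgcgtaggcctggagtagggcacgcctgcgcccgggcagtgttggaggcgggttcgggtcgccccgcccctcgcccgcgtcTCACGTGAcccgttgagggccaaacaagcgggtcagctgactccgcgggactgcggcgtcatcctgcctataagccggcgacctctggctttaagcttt
Cst7, chr2:150570165-150570414, plus strand: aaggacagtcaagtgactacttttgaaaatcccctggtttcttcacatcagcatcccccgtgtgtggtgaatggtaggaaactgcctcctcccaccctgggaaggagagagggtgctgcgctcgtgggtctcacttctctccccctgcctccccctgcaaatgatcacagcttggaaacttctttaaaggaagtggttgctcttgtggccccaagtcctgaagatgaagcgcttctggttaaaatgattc
Of 44 promoters of 36 named genes searched, 2 held TCACGTGA, those of Ctsd and of Siglech, a resident gene of the rule that was lower in members. Among all 32851 promoters of this length, 0.785% held it. TGATGNAA, the composite site of ATF4 and C/EBP proteins, was found on either strand in 3.45% of all promoters and did not occur in those of Psat1, Phgdh, Shmt2, Mthfd2 and Psph. Such matches describe letters only.

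Lipid genes past 1.5 times were all higher in members. Of 16 tested genes of lipid uptake, storage and efflux, 7 were over 1.5 times higher and 0 lower (median log2 ratio 0.33), among them Fabp5, Msr1 and Ch25h. Abcg1 and Abca1, cholesterol exporters, had ratios of 2.32 (1.77 to 2.99) and 1.78 (1.38 to 2.27), and Plin2, which coats lipid droplets, stood at 104.8 against 69.1 CPM (ratio 1.52, 1.26 to 1.82). Lpcat2, an acyltransferase of phospholipids, had a ratio of 0.721 (0.661 to 0.785), within 1.5 times. Of 12 sterol synthesis genes, 6 were higher, among them Scd2, a fatty acid desaturase, at 2.32 (1.62 to 3.23) and Fdps, an isoprenoid enzyme, at 1.81 (1.40 to 2.30), all at 59.7 CPM or less in members. Of 7 tested partners of lipoprotein lipase, 1 was higher: Sdc4, a syndecan, at 1.75 (1.24 to 2.41), with 57.5% of UMIs in 5 cells. Lmf1, needed for the folding of the lipase, had 1.18 (0.816 to 1.65).

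Among 14 receptors and matrix partners of fibronectin, 4 were higher and 2 lower. Besides Spp1 and Sdc4, the higher were Lgals1, galectin-1, at 367 against 191 CPM (ratio 1.92, 1.74 to 2.12), and Timp2, a metalloprotease inhibitor, at 1.69 (1.48 to 1.92). Itga5, the alpha chain of the classical fibronectin receptor, was lower at 0.608 (0.370 to 0.944), and Mmp14, a membrane metalloprotease, at 0.526 (0.299 to 0.859). Itgb1, the beta chain of that receptor, was level at 0.970 (0.829 to 1.13).

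Glycolysis was the group with most of its tested genes higher: 8 of 14 were over 1.5 times higher and 0 lower (median log2 ratio 0.66). Gapdh stood at 1544 CPM in members, 867 in comparison cells and 606 in control comparison cells (ratio 1.78, 1.70 to 1.87). As a limit on its count, 35.0% of 50-base words in the last 500 bases of its transcripts recur elsewhere, mainly in Gm7336. Slc16a3, the lactate exporter, had a ratio of 2.22 (1.73 to 2.82), Pkm, pyruvate kinase, 1.88 (1.75 to 2.02), Pgam1 1.82 (1.63 to 2.04), and Ldha, lactate dehydrogenase, 1.65 (1.50 to 1.80). These levels differed by the leading gene. Over 1.5 times higher were 4 of the 14 genes in Cst7-led, 9 in Lpl-led and 9 in Fn1-led members. In Fn1-led members 3 were lower. Over all 5180 genes tested, 4.75%, 14.7% and 21.9% were higher in these sets, and 21.1% were lower in Fn1-led members. In the 71 Cst7-led members Gapdh had a ratio of 1.25 (1.15 to 1.35) and Ldha 0.850 (0.712 to 1.01), and in members with a resident sum of 50 or more Gapdh had 0.998 (0.735 to 1.33) to matched comparison cells. Over all members the entry steps were level, with Slc2a1, the glucose transporter, at 0.983 (0.681 to 1.38) and Hk2, a hexokinase, at 0.853 (0.721 to 1.00). Of 16 oxidative phosphorylation genes, 1 was higher and 0 lower (median log2 ratio 0.32). Hif1a, a transcription factor of the response to low oxygen, stood at 117 against 75.1 CPM (ratio 1.55, 1.30 to 1.85). In the redox list, 5 of 14 were higher and 2 lower, with Mt2, a metallothionein, at 2.71 (2.20 to 3.32), Txn1, thioredoxin, at 1.67 (1.48 to 1.88), and Hmox1, heme oxygenase, at 0.578 (0.520 to 0.639).

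Inflammatory genes were split. Of 18 tested, 3 were over 1.5 times higher, all chemokines (Ccl5, Ccl7 and Ccl2), and 3 lower. Ccl2, a monocyte chemokine, stood at 305 against 130.3 CPM (ratio 2.34, 2.10 to 2.61) in 43 members. The lower ones were Tnf, at 95.5 against 214 CPM (ratio 0.445, 0.366 to 0.537), Il1a, at 124 against 262.5 CPM (0.474, 0.400 to 0.558), and Cxcl1. Of 19 interferon-induced genes, 2 were higher and 0 lower (median log2 ratio 0.04). These were Rsad2 and Ifit2, with 95.6% and 89.1% of UMIs in 5 cells, while Irf7 and Bst2 were level at 1.06 (0.889 to 1.25) and 0.982 (0.902 to 1.07).

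Heat shock and immediate early genes were lower or level: 8 of 22 were over 1.5 times lower and 0 higher (median log2 ratio -0.36). Hspa1a, the inducible chaperone HSP70, stood at 4038 CPM in members, 8126 in comparison cells and 13974 in control comparison cells (ratio 0.497, 0.483 to 0.511). Its median over single members was 19.0 per 10000 UMIs and over comparison cells 51.1. Dnajb1, its co-chaperone, had a ratio of 0.442 (0.384 to 0.508), Hsph1 0.550 (0.473 to 0.637) and Junb, an AP-1 subunit, 0.662 (0.632 to 0.694). Fos and Egr1 were closer to the comparison cells, at 0.892 (0.825 to 0.962) and 0.920 (0.841 to 1.01).

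Further lists were mixed. Among 12 trophic factors 5 were higher and 1 lower, with Hbegf, an EGF receptor ligand, at 1.60 (1.32 to 1.92) and Gas6, the bridge between dying cells and Axl or Mertk, at 1.57 (1.39 to 1.76). Of 19 phagocytic receptors 3 were higher and 0 lower, and Mertk stood at 0.844 (0.674 to 1.04). Of 10 complement genes 1 was higher, and the C1q chains were level, with C1qa at 1.17 (1.15 to 1.19). Of 18 genes of protein folding in the endoplasmic reticulum 1 was higher, the chaperone Hyou1 at 2.12 (1.35 to 3.19). Of 18 myeloid transcription factors 2 were higher and 2 lower, with Sall3 at 0.430 (0.262 to 0.666) and Spi1, the lineage factor PU.1, at 0.835 (0.757 to 0.918). Of 16 growth and translation genes 1 was higher, Myc at 1.52 (1.08 to 2.10).

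Several of these levels shifted in steps with the sum of the 3 genes, also below the cut. Ctsd stood at 11027 CPM in comparison cells, 16679 in cells with a sum of 2 to 4, 19301 in cells of 4 to 8 and 19882 in members. Fcrls stood at 266, 380.3, 444 and 456 CPM in the same order, and Spp1 at 196.5, 598, 803 and 1124 CPM. For Spp1 these steps rested on few cells, as 5 cells held 58.6% of its UMIs at 2 to 4, 42.1% at 4 to 8 and 64.3% in members. Spp1 also differed across the cut, with 717.5 CPM at 6 to 8 and 1156 CPM at 8 to 10. Csf1r went the other way, with 2534, 2364, 2071 and 1709 CPM, and Hspa1a with 8126, 6024, 4919 and 4038 CPM. Ccl5 was level between the middle steps, with 458 CPM at 2 to 4 and 473 CPM at 4 to 8, and stood at 1961 CPM in members.

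**Figure D4:**
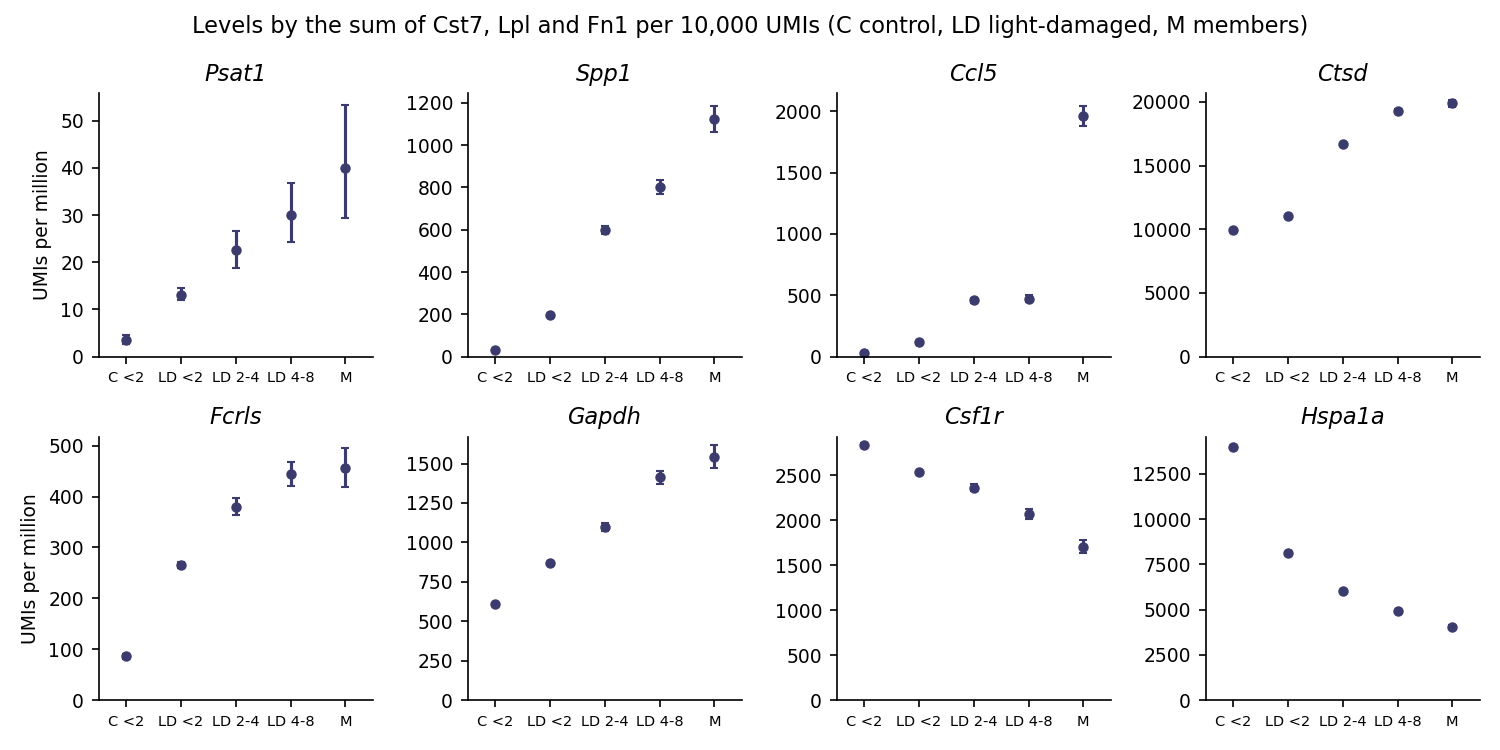
CPM values with 95% counting intervals are plotted for 8 genes in control comparison cells (C), light-damaged comparison cells (LD below 2), light-damaged cells with a Cst7, Lpl and Fn1 sum of 2 to 4 and 4 to 8 that passed the other cuts, and members (M). Psat1, Spp1, Ctsd, Fcrls and Gapdh are higher at each step and Csf1r and Hspa1a lower, while Ccl5 is level from 2 to 4 to 4 to 8 and highest in members.

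Within the members, the summed levels of Spp1 and Ccl5 ran in opposite directions with the size of the sum, but few cells gave most of the UMIs. Spp1 stood at 1513 CPM in the 79 members with a sum of 8 to 12, 707 CPM in the 37 of 12 to 20 and 152 CPM in the 14 of 20 or more. Ccl5 stood at 963, 2748 and 5195 CPM in the same order. The 14 members of 20 or more held Ccl5 UMIs in 3 cells and Spp1 UMIs in 8. At 8 to 12, 5 cells held 78.4% of Spp1 and 82.6% of Ccl5 UMIs, and at 12 to 20, 73.7% and 98.1%. The share of cells with a UMI changed less, at 55.7%, 56.8% and 57.1% for Spp1. For Ccl5 this share was 27.8%, 27.0% and 21.4%.

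Levels also differed by which of the 3 genes led the sum, although these sets were formed from the members' own counts and are described without a test. The 71 Cst7-led members had Apoe at 30242 CPM, the 39 Lpl-led members 20401 CPM and the 15 Fn1-led members 7693 CPM, on both sides of the 16620 CPM of the comparison cells. Ctsd followed the same order, with 25287, 16897 and 8503 CPM, as did Ctsb with 8122, 5713 and 2636 CPM. The ratio of Fn1-led members to comparison cells was 0.771 (0.734 to 0.809) for Ctsd and 0.713 (0.652 to 0.778) for Ctsb, so that the higher level over all members did not hold for them. Median depth was 7287, 6055 and 11726 UMIs in Cst7-led, Lpl-led and Fn1-led members.

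Among the 3 sets, Cst7-led members also had the highest Ccl5, at 3153 CPM against 258 CPM in Lpl-led and 10.3 CPM in Fn1-led members. Few cells gave this level, as 81.0% of the Cst7-led UMIs of Ccl5 came from 5 cells. A UMI of Ccl5 was found in 26.8% of Cst7-led, 30.8% of Lpl-led and 13.3% of Fn1-led members. The 5 tied members held Ccl5 at 6086 CPM, from 2 cells, and Spp1 at 3888 CPM, from 4 cells. In Cst7-led, Lpl-led and Fn1-led members Lyz2, lysozyme, stood at 3831, 1863 and 1156 CPM, and Trem2 at 2934, 2134 and 1068 CPM. S100a1, a calcium-binding protein, stood at 93.6 CPM in Cst7-led members and 30.7 CPM in the other members, with UMIs in 30 cells, and Lgals3bp, a galectin-binding glycoprotein, at 873 and 381 CPM in 66 cells. Spp1 was lower than in the other sets, at 308 CPM.

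Among the 3 sets, Lpl-led members had the highest Spp1, at 2290 CPM (ratio to comparison cells 11.7, 10.8 to 12.6), although 38.5% of these UMIs came from 1 cell, and the highest Fabp5, at 255.5 CPM, against 151.5 in Cst7-led and 46.4 in Fn1-led members. Hspa1a was nearest to the comparison cells in them, at 6059 CPM, against 3357 in Cst7-led and 3663 in Fn1-led members. Without that cell Spp1 stood at 1524 CPM. Hmox1 stood at 658 CPM in Lpl-led and 193 CPM in the other members, with 35.2% of the Lpl-led UMIs in 1 cell and 433 CPM without it.

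Fn1-led members carried transcripts of DNA replication. The cell cycle cut removes only cells with a sum of at least 5 per 10000 UMIs, and members reached 4.51. Of 14 replication genes outside the rule, 13 were over 1.5 times higher than in comparison cells in the Fn1-led members, beside 6 in all members and 5 in the Lpl-led ones. Of all 5180 genes, 21.9% were over 1.5 times higher and 21.1% over 1.5 times lower in the Fn1-led members, while 14.7% were higher and 10.1% lower in the Lpl-led ones. In the Cst7-led members 4.75% were higher and 11.3% lower. The median log2 ratio of the replication genes in the Fn1-led members was 1.81, beside 0.03 over all genes. Mcm6 stood at 114 CPM in Fn1-led members, 13.3 in the other members and 17.0 in comparison cells, and Mcm4, a helicase subunit loaded before replication as well, at 61.9, 4.08 and 9.49 CPM. Mcm5, Mcm7 and Mcm3 had ratios to comparison cells of 5.58, 5.11 and 3.68. Gapdh stood at 2693 CPM (ratio 3.11, 2.84 to 3.39), and Vim, vimentin, and Anxa2, an annexin, had ratios of 3.11 (2.30 to 4.11) and 5.71 (3.30 to 9.24). P2ry12 had a ratio of 0.368 (0.295 to 0.453) to the comparison cells. Of the resident genes outside the rule, 16 of 28 were over 1.5 times lower. Mcm6 UMIs came from 6 of the 15 cells and Mcm4 UMIs from 8.

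Psat1 was above the comparison cells in each of the 3 sets, at 27.2 CPM in Cst7-led, 39.1 in Lpl-led and 51.6 in Fn1-led members. The intervals of the ratios between sets included 1, so the sets could not be told apart at this depth: Cst7-led to Fn1-led members had a ratio of 0.528 (0.225 to 1.30). Lilrb4a was also above the comparison cells in each set, at 160.0, 339.6 and 325 CPM.

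**Figure D5:**
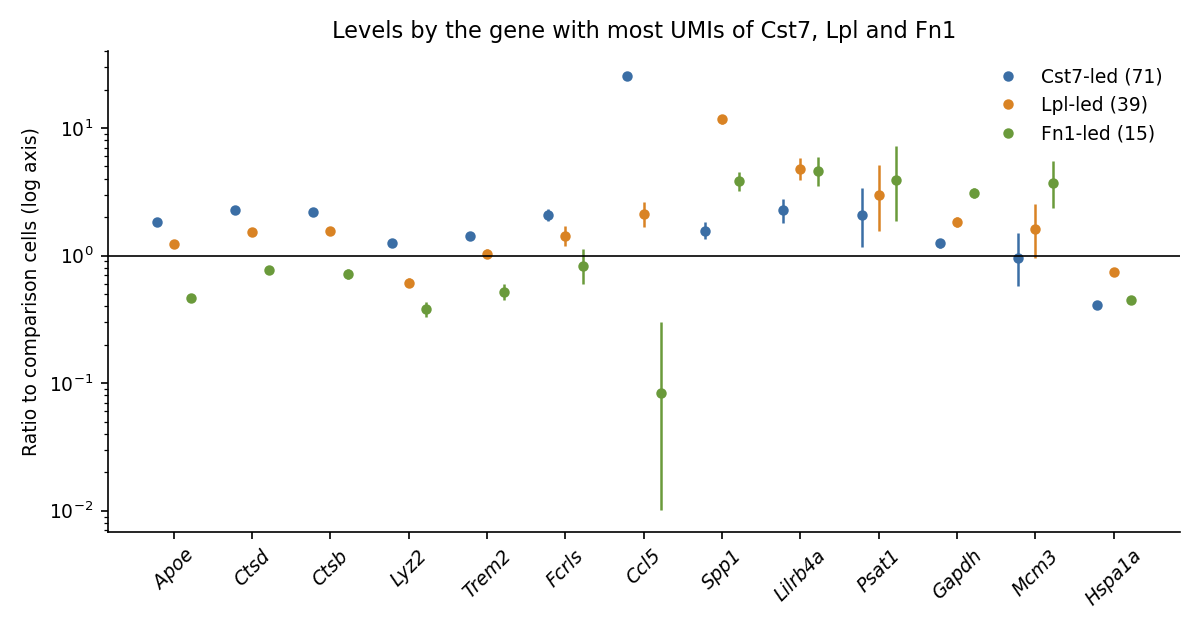
Ratios to comparison cells (log axis) with 95% counting intervals for 13 genes are drawn for the 71 Cst7-led, 39 Lpl-led and 15 Fn1-led members. Apoe, Ctsd and Ctsb lie above 1 in Cst7-led and Lpl-led members and below 1 in Fn1-led members, Ccl5 spans the widest range, and Mcm3 is highest in Fn1-led members.

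Matching cells by resident content changed some values. Of the members, 54 had a resident sum of 10 to 25, 61 of 25 to 50 and 15 of 50 or more, with median depths of 11288, 6483 and 3957 UMIs. The comparison cells in these ranges had 7815, 7135.5 and 6106 UMIs, so depth and resident content moved together more in members, and the part of depth was not tested. Ctsd was higher than in matched comparison cells in each range, with ratios of 2.19 (2.15 to 2.23), 1.60 (1.57 to 1.64) and 1.40 (1.32 to 1.48). Psat1 had ratios of 2.56 (1.67 to 3.81), 2.68 (1.50 to 4.46) and 1.65 (0.0410 to 9.51). Apoe reversed, with 0.550 (0.540 to 0.559) in the lowest range, where the comparison cells held 40378 CPM, and 2.39 (2.34 to 2.43) and 2.72 (2.55 to 2.91) in the others. Lyz2 did likewise, with 0.358 (0.340 to 0.376), 1.78 (1.69 to 1.88) and 1.61 (1.36 to 1.88). Genes that were lower over all members were not lower in every range. Cd74 had ratios of 0.110 (0.0881 to 0.135), 0.755 (0.557 to 1.00) and 1.64 (0.704 to 3.25), and Tnf 0.195 (0.151 to 0.249), 0.627 (0.440 to 0.867) and 2.51 (1.14 to 4.81). Ms4a7 had 0.0413 (0.0198 to 0.0761), 0.417 (0.0854 to 1.23) and 10.4 (3.66 to 23.9), the last from 6 UMIs in 1 member. Hspa1a had 0.426 (0.407 to 0.445), 0.526 (0.504 to 0.549) and 1.04 (0.960 to 1.13).

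Several defining markers of other cells were at 0 in members, and several list sums came mostly from 1 gene. Ccr2 and Ly6c2 of monocytes and Cd163 and Lyve1 of perivascular macrophages had 0 UMIs, which allows up to 2.56 CPM each. Ms4a7 had 19 UMIs in 12 members and Mrc1 4 UMIs in 1 member. The 13 monocyte and macrophage genes summed to 3008 CPM in members and 3365 in comparison cells, nearly all from Lyz2, with 5 of the genes at 0 in members. The 10 perivascular genes summed to 153 and 113 CPM, 92.9 of the members' value from Stab1, with 4 at 0. Rod genes summed to 209 CPM in members, 273 in comparison cells and 900 in control comparison cells, with 2 of 16 at 0. The Müller cell and astrocyte genes summed to 640 CPM in members and 720 in comparison cells, 457 of the members' value from Glul, with 6 of 11 at 0. Cone genes summed to 277 and 299 CPM, all of it from Gngt2 in members, with 8 of 9 at 0. Dendritic cell genes summed to 190 and 184 CPM, mostly Fscn1, and neutrophil genes to 141 and 145 CPM, mostly Csf3r, with 5 genes of each list at 0. Endothelial and pericyte genes gave 23 UMIs, or 19.6 against 6.85 CPM, of which 8 were Cspg4 in 3 members. Erythrocyte genes were at 0. Doublet scores marked members and comparison cells alike: removing the 370 highest-scoring light-damaged barcodes took 8 members (6.15%) and 255 comparison cells (5.99%).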

How the data were processed

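UMI counts per gene and barcode were used as deposited. They were made with Cell Ranger 2.0.0 and mm10, per the submitters' processing notes; no further step is recorded in the labels. Members, comparison cells, gene lists and marker lists were chosen with earlier results of these data known.

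UMIs were summed over the cells of each set and divided by the set's total (CPM). A gene was tested with at least 20 CPM in members or comparison cells, and called past a ratio of 1.5 in either direction. With 1 library per group no test was run. Ratios carry exact 95% Poisson intervals and shares Clopper-Pearson intervals, for counting error only. A count of 0 was given a limit of 3 counts. Named genes were those of the rule, Psat1, the 15 highest and 10 lowest ratios, and from each of 26 gene lists up to 6 genes with ratios farthest from 1 and genes within 1.5 times that define the list. Genes named for Cst7-led, Lpl-led or Fn1-led members alone were chosen after their values were seen. A further 12 lists held markers of other cells.

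Automatic doublet calling with Scrublet in scanpy 1.11.5 marked 0 control and 1 light-damaged barcodes and was not used. Doublets therefore stayed in, and removal of 0.8% of barcodes per 1000 by score was an alternative. The ratio script was tested on simulated counts. Python 3.11.15, numpy 2.4.6, scipy 1.17.1, pandas 2.3.3 and matplotlib 3.10.9 were used. A gene that the naming rule covers is not reported here.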

Additional observations from a re-analysis of the deposited data

How the results depend on the processing

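The Psat1 ratio of 3.04 stayed above 1.5 in 16 of 16 alternatives. These alternatives reuse cells of the same library, and Psat1 was named with earlier results of these data known. They are therefore no independent evidence for the marker. The Psat1 ratio was 6.07 in members with a UMI of each of the 3 genes, 2.16 as a ratio of CPM + 10 and 2.07 in Cst7-led members. The share of cells passing the rule, 1.91%, was 3.35% with the first cut at 6, 0.750% at 12 and 2.40% after thinning. The sets led by 1 gene and the removal of each gene's UMIs in its top member cell were chosen after seeing the data. This removal, given below as without the top cell, keeps the members' total. It lowers the member level of every gene by construction. Causes of the other shifts were not tested.

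The 272 higher genes became 465 after thinning, 546 at 5000 to 10000 UMIs, 1522 with a UMI of each gene, 110 at a minimum of 50 CPM, 4250 at 3 counts, 137 with CPM + 10, 128 without the top cell, 1030 in Lpl-led and 1625 in Fn1-led members. The 246 lower genes became 143 with the cut at 6, 572 at 12, 465 after thinning, 633 at 5000 to 10000 UMIs, 964 with a UMI of each gene, 83 at 50 CPM, 1421 at 3 counts, 105 with CPM + 10, 447 without the top cell, 567 in Cst7-led, 504 in Lpl-led and 1054 in Fn1-led members. List medians past 1.5 times numbered 3 of 26, but 1 with the cut at 12, 1 at 5000 to 10000 UMIs, 12 with a UMI of each gene, 6 in Lpl-led and 10 in Fn1-led members.

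Over all lists and alternatives, 389 of 468 medians stayed within the limits set, 78 moved and 1 reversed: MHC class II, at 0.0331 in cells without macrophage-marker UMIs. Of 623 ratios of named genes, 328 stayed, 274 moved and 21 reversed. In Fn1-led members these were Ccl5 at 0.0841, Cxcl13 at 0.256, Ctla2a at 0.906, Gm1673 at 0.413, Ctsb at 0.713, Ctsd at 0.771 and Fcrls at 0.834. At 5000 to 10000 UMIs Gm43409 was 0.558 and Loxl2 0.705. Without the top cell Gm43409 was 0.427, Loxl2 0.566 and Cmpk2 0.821. Without macrophage-marker UMIs Gm43409 was 0.605, Cmpk2 0.690, Ifi203 1.21, Mndal 1.83 and Cd74 1.02. Cmpk2 was 0.405 and Ndrg1 0.622 with the cut at 12, and Cmpk2 0.477 after thinning and 0.328 in Cst7-led members.

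No paired analysis was possible because each group was 1 library of pooled retinas. Depth limited genes such as Psat1, with 47 UMIs over all members, and leaving out a replicate was not possible.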
